A study of Mus musculus with 10 samples.

Results

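The transcripts of 10 genes of the small RNA pathway, namely Drosha, Dgcr8, Xpo5, Dicer1, Tarbp2, Ago1, Ago2, Ago3, Ago4 and Mov10, were followed in 10 RNA-seq libraries of mouse hippocampal CA3. The genes were chosen by symbol from the 18453 genes of the count files, on the basis of their values in the same comparison: Ago3 and Mov10 had stood out in it, and the other genes were added from the same pathway. Their differences between the groups are therefore given as a description, without a test of their own. All 10 genes were among the 14393 that passed the filter on low counts and were tested. All animals were C57BL/6J mice, and the labels name no engineered allele. Adeno-associated virus was infused into CA3 on both sides by stereotaxic injection, and each of the 2 groups received a virus with a short hairpin RNA. In 5 libraries the hairpin was AAV-shRNA(scramble), with no named target, and in 5 it was AAV-shRNA(mef2c), directed against the transcription factor Mef2c in CA3 pyramidal neurons. Every library is labelled male, while the treatment protocol speaks of either sex, and no age or time after injection is given. The promoter of the virus is not given either. A group without virus or hairpin is not analysed here, so the hairpin itself, which enters the pathway described here, is common to both groups.

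A microRNA begins as a hairpin within a long primary transcript. The microprocessor, made of the nuclease Drosha and its RNA-binding partner Dgcr8, cuts the hairpin out in the nucleus, and the export receptor encoded by Xpo5 carries it to the cytoplasm. There the nuclease Dicer1, with the double-stranded RNA-binding protein Tarbp2, cuts off the loop, and a strand is loaded into an Argonaute protein (Ago1 to Ago4). Argonaute guides the silencing of messenger RNAs with matching sites, Ago2 being the Argonaute known for slicing its target, and the helicase Mov10 associates with Argonaute complexes. In neurons the pathway is known for tuning the messenger RNAs of dendrites and synapses. An expressed hairpin RNA enters it at the export step.

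The 4 Argonaute genes code for proteins of nearly the same size, and their coding sequences are 71.62% to 75.55% identical between pairs. Over the alignment of all 4, 1484 positions were the same. The most alike stretch of 60 bases, with 51 bases the same in all 4 genes, is shown because it bears on how well reads of these genes can be told apart. It lies within a coding exon of each gene on the minus strand of GRCm38 (GENCODE M21), at chr4:126448843-126448902 in Ago1, chr15:73121140-73121199 in Ago2, chr4:126363722-126363781 in Ago3 and chr4:126510027-126510086 in Ago4. Capitals mark the bases shared by all 4, and the sequences read 5′ to 3′ on the coding strand.
Ago1: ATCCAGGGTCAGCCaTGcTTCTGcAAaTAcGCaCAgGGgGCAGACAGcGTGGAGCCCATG
Ago2: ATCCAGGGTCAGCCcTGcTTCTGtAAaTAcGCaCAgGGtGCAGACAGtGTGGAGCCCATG
Ago3: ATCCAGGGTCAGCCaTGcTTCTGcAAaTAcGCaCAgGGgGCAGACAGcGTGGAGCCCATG
Ago4: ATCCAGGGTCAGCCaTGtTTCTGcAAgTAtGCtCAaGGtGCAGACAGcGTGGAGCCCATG
In this stretch Ago1 and Ago3 were the same at every base. Of all stretches of 100 bases in the transcripts, 71 were common to Ago1 and Ago3, which is 0.996% of those of Ago1 and 0.458% of those of Ago3. Ago4, Dicer1, Drosha, Xpo5 and Mov10 shared no stretch of that length with another gene, and Ago2 shared 0.978% with Chrac1 and Gm6088. Sharing was wider in Tarbp2 (36.728%, with Gm18584) and in Dgcr8 (22.625%, with Gm43555, Gm49776 and Trmt2a), so the counts of those genes are less certain. Dgcr8 also overlaps Trmt2a, on the opposite strand, over 825 bp of its exons, and the strand setting of the counting is not given.

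The promoter windows of Ago3 and Mov10 are shown because, among the 10 genes, Ago3 had the smallest p of those called lower and Mov10 was the only gene called higher after the Mef2c hairpin. Ago2, with the lowest log2 fold change, has no entry. Each is the 250 bases before a RefSeq transcription start of GRCm38.p6 on the minus strand, at chr4:126429543-126429792 for Ago3 and chr3:104818564-104818813 for Mov10. Capitals mark CG dinucleotides, the sites of DNA methylation.
Ago3: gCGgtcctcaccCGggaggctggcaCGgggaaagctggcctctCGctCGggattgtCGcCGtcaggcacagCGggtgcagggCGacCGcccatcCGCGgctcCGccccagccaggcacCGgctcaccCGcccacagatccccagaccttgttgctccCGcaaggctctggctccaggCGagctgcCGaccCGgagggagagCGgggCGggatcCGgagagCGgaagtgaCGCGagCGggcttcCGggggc
Mov10: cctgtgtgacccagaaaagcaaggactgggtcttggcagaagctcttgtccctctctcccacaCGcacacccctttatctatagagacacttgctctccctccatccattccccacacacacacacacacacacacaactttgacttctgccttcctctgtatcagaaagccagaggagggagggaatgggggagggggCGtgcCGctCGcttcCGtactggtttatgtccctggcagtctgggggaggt
The Ago3 window held 27 CG dinucleotides and the Mov10 window 5, and a second start of Mov10 had 11. The other genes with an entry (Ago1, Ago4, Dicer1, Drosha, Dgcr8, Xpo5 and Tarbp2) held 18 to 46, where the median of all 32851 windows was 6 and 21.7% held at least 18. Both strands of each window were searched for the core of the interferon response element (a repeat of GAAA with any 2 bases between), for the MEF2 site by its consensus and for the TATA box (TATAAA). None of these letters was found in the windows of the 9 genes with an entry. Of all windows, 2.98%, 2.92% and 12.37% held them, in that order. Methylation and factor binding were not measured.

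The libraries held 14701928 to 17798090 counts each. The 10 genes had 226 (Ago4) to 2762 (Ago2) counts in a library, at which counting alone gives a coefficient of variation of 1.96% to 6.19%. For Ago1, Ago2, Ago3, Dicer1, Drosha, Xpo5 and Tarbp2 the spread between libraries was wider than that in both groups. It was not wider for Ago4 (3.95% against 5.97% from counting) and Dgcr8 (1.28% against 4.41%) in the scramble group and for Mov10 (4.21% against 4.64%) in the Mef2c shRNA group, so counting error limits the precision there. The labels do not say that the libraries came from separate animals, and p-values then measure the spread between these libraries, which may be technical. Markers of CA3 pyramidal cells (Grik4, Bok, Iyd, Cdh24 and Homer3) were detected in each library, with a summed level of 195.7 to 238.6 CPM (counts scaled to the size of the library) in the scramble and 197 to 290.4 CPM in the Mef2c shRNA group. Markers of CA1 (579.6 to 733.8 CPM over all libraries) and of dentate granule cells (297.4 to 537.7 CPM) were present as well, so the tissue was not CA3 alone. Mef2c itself stood at 166.3, 197.7, 175.8, 312.02 and 175.2 CPM in scramble libraries 1 to 5 and at 110.5, 130.8, 121.1, 163.2 and 286.1 CPM in Mef2c shRNA libraries 1 to 5. The groups overlapped, because the library labelled Mef2c shRNA 5 lay above all scramble libraries except number 4. By edgeR's quasi-likelihood test Mef2c did not pass (adjusted p = 0.489), with a log2 fold change of -0.34 and an SE of 0.30. Directions below are those of the labels, and the library labelled Mef2c shRNA 5 goes against its label in this check. Markers of cortical layers moved with Mef2c: their score, a mean of centred log2 CPM over 7 genes, was highest in scramble library 4 (0.557) and the library labelled Mef2c shRNA 5 (0.835), against -0.467 to 0.215 in the other libraries. Their part in the Mef2c values was not tested. Without those 2 libraries Ago2, Ago3, Dicer1 and Mov10 were still called.

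**Figure D1:**
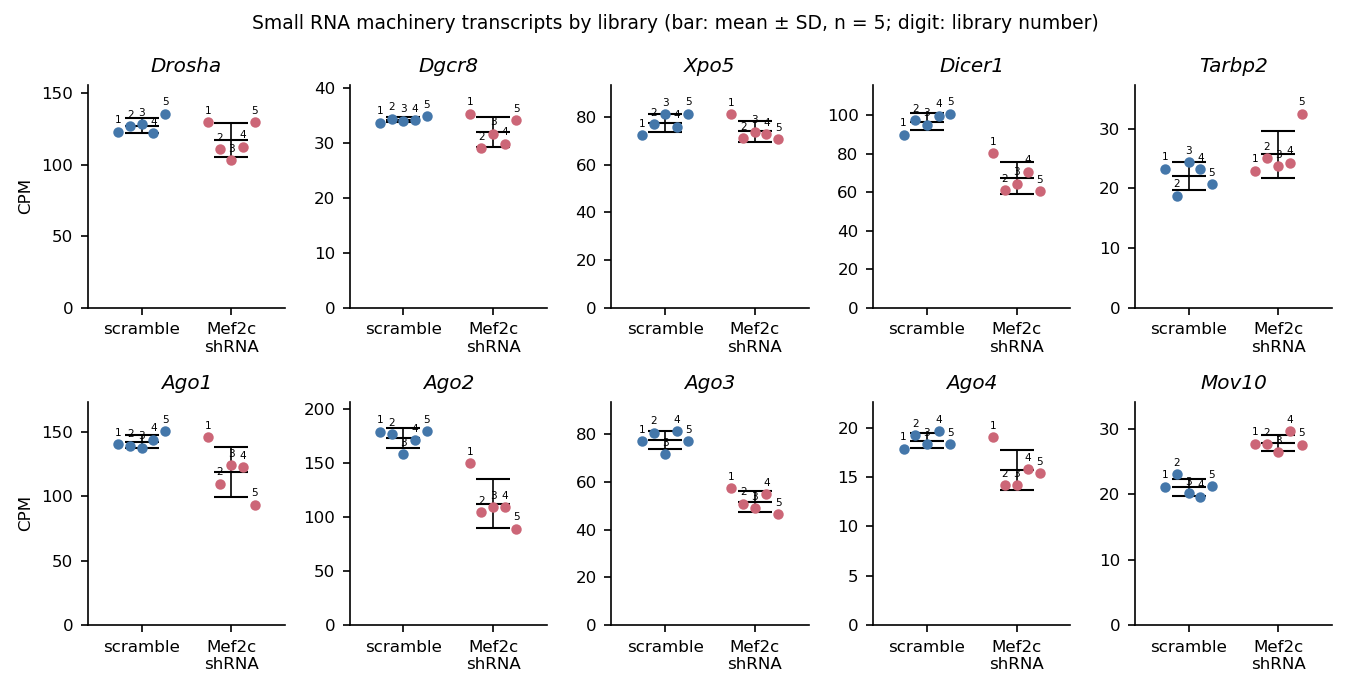
Transcript level of each gene in each library, in CPM on a linear axis from 0; points are libraries with their number, and bars are the mean ± SD of 5 libraries (blue, scramble; red, Mef2c shRNA). Ago2, Ago3 and Dicer1 lie lower and Mov10 higher in all 5 Mef2c shRNA libraries than in any scramble library, and the other genes overlap.

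The nuclear steps showed small differences. Drosha, the nuclease, stood at 123.1, 126.8, 128.6, 122.3 and 135.8 CPM in the scramble libraries 1 to 5 and at 129.6, 111.1, 103.0, 112.6 and 129.96 CPM in the Mef2c shRNA libraries 1 to 5. Libraries 1 and 5 of the Mef2c shRNA group lay within the scramble range and the other 3 below it. The means were 127.3 ± 5.39 and 117.2 ± 12.02 CPM (SD, n = 5), with a log2 fold change of -0.12 (SE 0.071). Dgcr8, its partner, varied little among scramble libraries (33.8 to 34.9 CPM) and more among Mef2c shRNA libraries (29.1 to 35.4 CPM), with means of 34.28 ± 0.439 and 32.08 ± 2.70 CPM and a log2 fold change of -0.096 (SE 0.070). Xpo5, which encodes the export receptor exportin 5, averaged 77.6 ± 3.82 and 74.0 ± 4.31 CPM, a log2 fold change of -0.069 (SE 0.060). Its Mef2c shRNA libraries 2 to 5 lay between 70.8 and 73.9 CPM and library 1 at 81.4 CPM. None of these 3 genes was called at an adjusted p of 0.05 in the fit over all genes, and their groups overlapped.

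At the cytoplasmic cut the nuclease was called lower and its partner was not called. Dicer1 stood at 89.9, 97.3, 95.0, 99.6 and 100.7 CPM in scramble libraries 1 to 5. After the Mef2c hairpin it stood at 80.3, 61.1, 64.4, 70.5 and 60.6 CPM. All 5 of these lay below the lowest scramble library, with library 1 the nearest. The means were 96.5 ± 4.32 and 67.4 ± 8.27 CPM (SD, n = 5) and the log2 fold change was -0.52 (SE 0.078), a lower call. Tarbp2, which binds the hairpin beside Dicer1, stood at 23.3, 18.8, 24.4, 23.2 and 20.7 CPM in the scramble and at 22.99, 25.03, 23.7, 24.4 and 32.6 CPM in the Mef2c shRNA libraries. The groups overlapped, and library 5 of the Mef2c shRNA group stood apart at the top. Its log2 fold change was 0.22 (SE 0.107) and it was not called. The level of Dicer1 per kilobase of exon, divided by that of Drosha, was 0.259 to 0.289 in the scramble and 0.165 to 0.222 in the Mef2c shRNA libraries, with no overlap. The ratio of Drosha to Dgcr8 averaged 4.82 ± 0.156 and 4.74 ± 0.307 (SD, n = 5), and those groups overlapped. These ratios hold no correction for transcript length. Once offsets for length and GC content (given below) were included, Dicer1 and Drosha had log2 fold changes of -0.16 and -0.091, against -0.52 and -0.12 without. Tarbp2 then had 0.11 (SE 0.098), against 0.22 without. The difference between the fold changes of Dicer1 and Tarbp2 was not tested.

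Among the Argonautes, Ago2 and Ago3 were called lower. Ago2, the slicing Argonaute (chromosome 15, 73095844 to 73184935, minus strand), stood at 178.6, 176.6, 157.5, 171.1 and 179.4 CPM in scramble libraries 1 to 5. In the Mef2c shRNA libraries it stood at 149.7, 104.3, 108.9, 108.7 and 89.0 CPM. Library 1 of that group came close to scramble library 3, while the other 4 lay far below, and the groups did not overlap. The means were 172.6 ± 9.05 and 112.1 ± 22.5 CPM (SD, n = 5), with a log2 fold change of -0.62 (SE 0.110). Ago3 lies on chromosome 4 (126331704 to 126429556, minus strand) and stood at 77.1, 80.6, 71.6, 81.4 and 77.2 CPM in the scramble libraries. After the Mef2c hairpin its values were 57.4, 50.95, 49.1, 54.8 and 46.5 CPM. All 5 libraries of that group lay well below the scramble range, with a spread like that of the scramble libraries. The means were 77.6 ± 3.87 and 51.7 ± 4.36 CPM (SD, n = 5), the log2 fold change was -0.59 (SE 0.068), and Ago3 ranked 12 by p among the genes tested. The genes were chosen on this comparison, so nothing is read from that rank.

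Ago1 and Ago4 are the neighbours of Ago3 on chromosome 4. Ago1 (126435012 to 126468583) follows Ago3 after 5455 bp and Ago4 (126489541 to 126533472) follows Ago1 after 20957 bp, all on the minus strand. Ago1 stood at 140.6, 139.5, 137.8, 144.1 and 150.8 CPM in scramble libraries and at 145.8, 109.7, 124.1, 122.7 and 93.5 CPM in Mef2c shRNA libraries. Only library 1 of the latter reached the scramble range. Its log2 fold change was -0.26 (SE 0.094). Ago4, the Argonaute with the fewest counts, had 17.9, 19.2, 18.4, 19.7 and 18.4 CPM in scramble and 19.1, 14.2, 14.2, 15.8 and 15.4 CPM in Mef2c shRNA libraries, again with library 1 alone inside the scramble range. The log2 fold change of Ago4 was -0.25 (SE 0.094). Neither was called with all libraries. Without Mef2c shRNA library 1 both were, with log2 fold changes of -0.34 (SE 0.079) for Ago1 and -0.33 (SE 0.083) for Ago4. Over all genes, that fit called 1776 lower, against 1095 with all libraries. With offsets for length and GC content and all libraries, Ago1 and Ago4 had log2 fold changes of -0.051 and -0.030. Differences between the fold changes of the 4 Argonaute genes were not tested. In bulk RNA a lower level can come from fewer cells of a type or from less RNA per cell, which cannot be told apart.

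Mov10, an RNA helicase of the Argonaute complexes that is also known as an interferon-inducible antiviral factor, was the only gene of the 10 called higher. It lies on chromosome 3 (104794836 to 104818563, minus strand). Scramble libraries 1 to 5 stood at 21.2, 23.1, 20.2, 19.6 and 21.2 CPM. Mef2c shRNA libraries 1 to 5 stood at 27.7, 27.6, 26.5, 29.7 and 27.6 CPM. Every library of that group lay above every scramble library, library 1 included. The means were 21.1 ± 1.31 and 27.8 ± 1.17 CPM (SD, n = 5), the log2 fold change was 0.40 (SE 0.071), and Mov10 ranked 197 by p. As for Ago3, nothing is read from the rank.

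In all, 1 of the 10 genes was called higher and 3 lower at an adjusted p of 0.05 in edgeR, and 6 were not called. Over all 14393 genes tested, the shares were 4.66% higher and 7.61% lower. In the same 4 genes, and in the same directions, all libraries of a group lay beyond all of the other, which held for 3.3% of all genes upwards and 6.04% downwards. Since the genes were selected on this comparison, nothing is read from these shares. The median log2 fold change was -0.19 over the 10 genes and 0.02 over all genes.

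Transcript length moved with these differences. The longest GENCODE transcript was 15595 bases for Ago3, 13800 for Ago2, 9851 for Dicer1, 7227 for Ago1, 6537 for Ago4, 5081 for Xpo5, 4570 for Drosha, 4320 for Dgcr8, 3718 for Mov10 and 2732 for Tarbp2. The 3 genes called lower were the 3 longest, and the 2 with a positive log2 fold change were the 2 shortest. Within the Argonautes the coding sequences had 2574 to 2586 bases, and the difference lay in the 3′ untranslated region, with 12742 bases in Ago3, 11064 in Ago2, 4491 in Ago1 and 3682 in Ago4. Across all genes tested, 63.2% of the 185 with transcripts of at least 12 kb were called lower, and their median was -0.48. Ago3 lay within the quartiles of that class (-0.60 and -0.32) and Ago2 just below them. Of the 719 genes of 8 to 12 kb, the class of Dicer1, 49.9% were called lower, with a median of -0.32 and quartiles of -0.45 and -0.20. Dicer1 lay below these quartiles. The 1286 genes of 6 to 8 kb, the class of Ago1 and Ago4, had a median of -0.19 and quartiles of -0.30 and -0.07, which include both. In the class of 2 to 4 kb, that of Mov10 and Tarbp2, 4.61% of 5928 genes were called higher, the median was 0.06 and the upper quartile 0.18. Mov10 and Tarbp2 lay above that quartile.

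**Figure D2:**
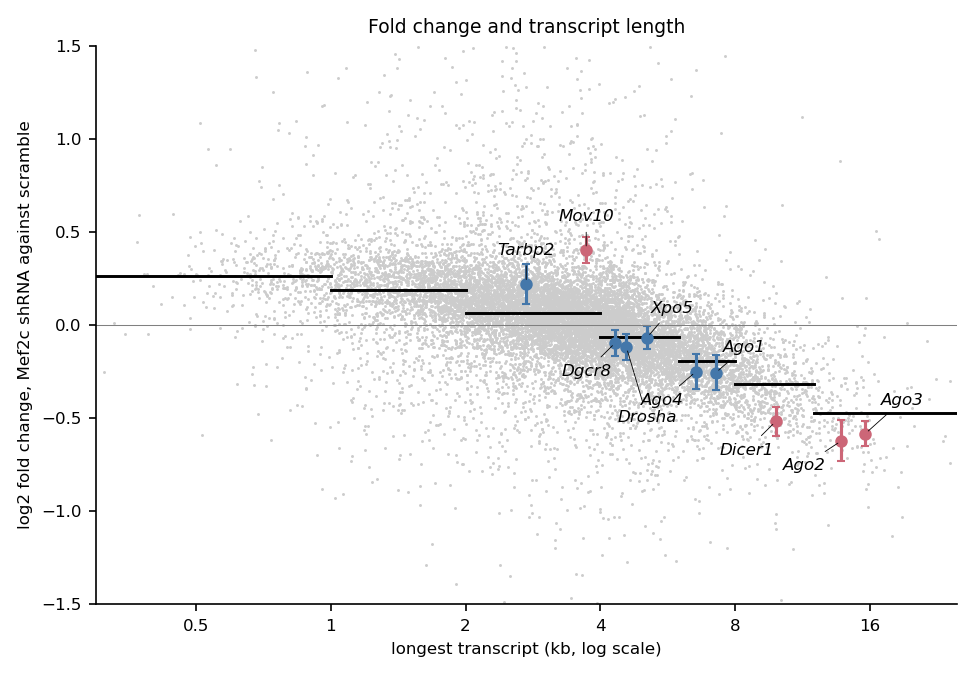
Log2 fold change of Mef2c shRNA against scramble (linear axis, genes outside the axes not drawn) by length of the longest transcript in kb (log axis), with genes tested in grey, the median of each length class as a black bar, and the 10 genes with their SE (red, called; blue, not called). The median goes from 0.26 under 1 kb to -0.48 at 12 kb and above, and Ago2, Ago3 and Dicer1 sit at the long end.

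Offsets for transcript length and GC content, fitted in each library over all genes, took up most of the difference of the long genes. With them the log2 fold change was -0.20 (SE 0.060) for Ago2, -0.11 (SE 0.048) for Ago3 and -0.16 (SE 0.047) for Dicer1, against -0.62, -0.59 and -0.52 without. The offsets alone differed between the groups by -0.44 for Ago2, -0.48 for Ago3 and -0.36 for Dicer1 on the log2 scale. Ago1 and Ago4 came to -0.051 (SE 0.059) and -0.030 (SE 0.077). Mov10 kept most of its difference, 0.32 (SE 0.078), since its offset came to 0.074. With the offsets edgeR called 0 of the 10 genes, against 238 of all genes (1.65%). Of the 10 genes 4 had an unadjusted p under 0.05, against 2527 of all 14393 genes. Other measures of length, chosen after seeing the data, moved these calls: the transcript with the longest coding sequence left Mov10 called (0.34), and transcripts extended to the RefSeq 3′ end left Ago3 called (-0.21). Counted from the GENCODE 3′ end, the RefSeq gene ends at 4710 bases for Ago3 and at -5781 bases, short of it, for Ago2. Any other part of the length trend in these differences was not tested.

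Single libraries show how far the genes moved with that trend. The slope of log2 CPM on log2 transcript length was 0.043 to 0.099 in the scramble libraries, 0.045 in Mef2c shRNA library 1 and -0.149 to -0.070 in Mef2c shRNA libraries 2 to 5. Library 1 of the Mef2c shRNA group, whose slope lay inside the scramble range, had the highest Ago1, Ago2, Ago3, Ago4 and Dicer1 of its group. Its slope on GC content was 0.0085, against -0.015 to 0.0022 in the scramble libraries. In library 1 Ago2, Ago3 and Dicer1 lay below the lowest scramble library, at 149.7 against 157.5, 57.4 against 71.6 and 80.3 against 89.9 CPM. The part of either slope in these values was not tested. Library 5 had the steepest negative slope and the lowest Ago1, Ago2, Ago3 and Dicer1. Mov10 showed no such order, with 27.7 CPM in library 1 and 27.6 CPM in library 5.

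Markers of interferon response and of microglia moved between libraries too. The interferon score, the mean centred log2 CPM of 18 interferon-stimulated genes, was 1.845, 1.467 and 1.534 in Mef2c shRNA libraries 2, 3 and 4, 0.18 in library 1 and -1.51 in library 5, against -1.446 to 0.51 in the scramble libraries. Of those 18 genes edgeR called 1 higher, while 8 had an unadjusted p under 0.05, DESeq2 called 6 and limma-voom 8. Of all 14393 genes tested by edgeR, 671 were called higher and 4327 had an unadjusted p under 0.05. In either direction DESeq2 called 2534 genes and limma-voom 3393. Their summed level was 107 to 269 CPM in the scramble and 109.5 to 632.2 CPM in the Mef2c shRNA group. Of 14 microglia markers edgeR called 6 higher, DESeq2 called 9 and limma-voom 11, with a summed level of 410.1 to 577.5 CPM in the scramble and 485.2 to 987.1 CPM in the Mef2c shRNA group, and no defining marker was at 0. Mov10 stood at 27.6, 26.5 and 29.7 CPM in Mef2c shRNA libraries 2, 3 and 4, at 27.7 CPM in library 1 and at 27.6 CPM in library 5. In scramble libraries 2 and 3, those with the highest scores of their group, it stood at 23.1 and 20.2 CPM, the highest and the second lowest of that group. With the interferon score as a covariate Mov10, Ago2, Ago3 and Dicer1 were still called. With the microglia score as a covariate edgeR called 0 of all genes (2809 had an unadjusted p under 0.05). The log2 fold changes were then -0.56 for Ago2, -0.55 for Ago3, -0.47 for Dicer1 and 0.42 for Mov10, close to those without it but with wider errors (SE 0.17, 0.106, 0.117 and 0.108). Without Mef2c shRNA libraries 2, 3 and 4, which leaves 2 libraries in that group, edgeR likewise called 0 genes (2590 at an unadjusted p under 0.05), and the values were -0.54, -0.59, -0.46 and 0.39. The part of microglia or interferon in the differences was otherwise not tested.

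**Figure D3:**
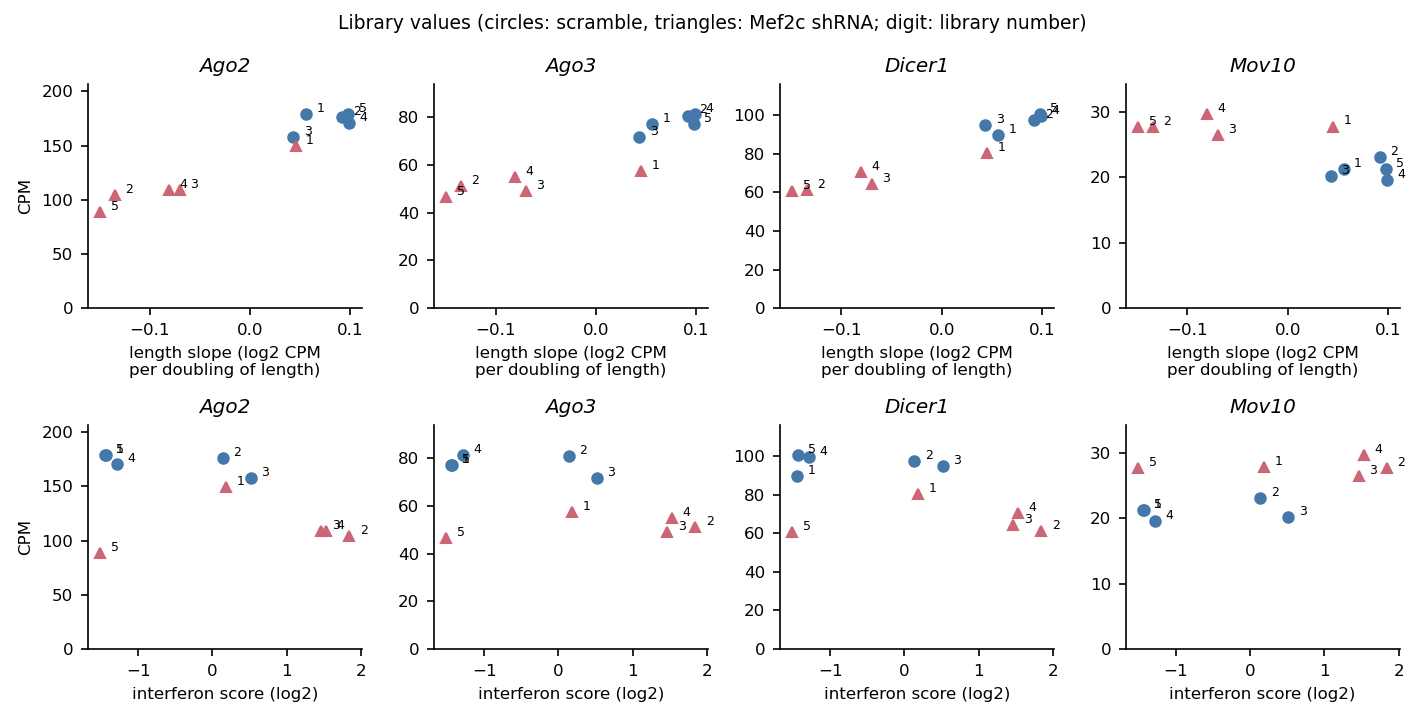
CPM of Ago2, Ago3, Dicer1 and Mov10 in each library (linear axis from 0) against the length slope of the library (upper row, log2 CPM per doubling of length) and its interferon score (lower row, log2 units); blue circles are scramble and red triangles Mef2c shRNA libraries, with their numbers. Mef2c shRNA library 1 has a slope of 0.045 among the scramble libraries, and library 5 an interferon score of -1.51 among the lowest.

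Levels can be set side by side between genes only per length. In the scramble libraries Drosha had the highest level, 21.45 ± 0.909 CPM per kilobase of merged exons (SD, n = 5), followed by Ago1 with 17.56 ± 0.636. Ago2 (12.3 ± 0.645) and Xpo5 (11.32 ± 0.557) came next and overlapped in range. Dicer1 stood at 5.76 ± 0.258, with its lowest library level with the highest of Tarbp2. Tarbp2 stood at 4.85 ± 0.502, Ago3 at 4.68 ± 0.234 and Dgcr8 at 4.45 ± 0.057, with overlapping ranges from Tarbp2 to Dgcr8. Mov10 (3.76 ± 0.234) and Ago4 (2.69 ± 0.106) had the lowest levels. The highest and the lowest gene thus differed 7.97-fold, and 9.73-fold per kilobase of the longest transcript, a scale on which Xpo5 stood above Ago2, and Dgcr8 and Mov10 above Ago3. In the Mef2c shRNA libraries Xpo5 (10.79 ± 0.629) had a higher mean than Ago2 (7.99 ± 1.61), and Mov10 (4.96 ± 0.209) a higher one than Ago3 (3.12 ± 0.263) and Dicer1 (4.02 ± 0.494). Division by length does not take out the length slope of a library, which was -0.149 to -0.070 in Mef2c shRNA libraries 2 to 5.

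**Figure D4:**
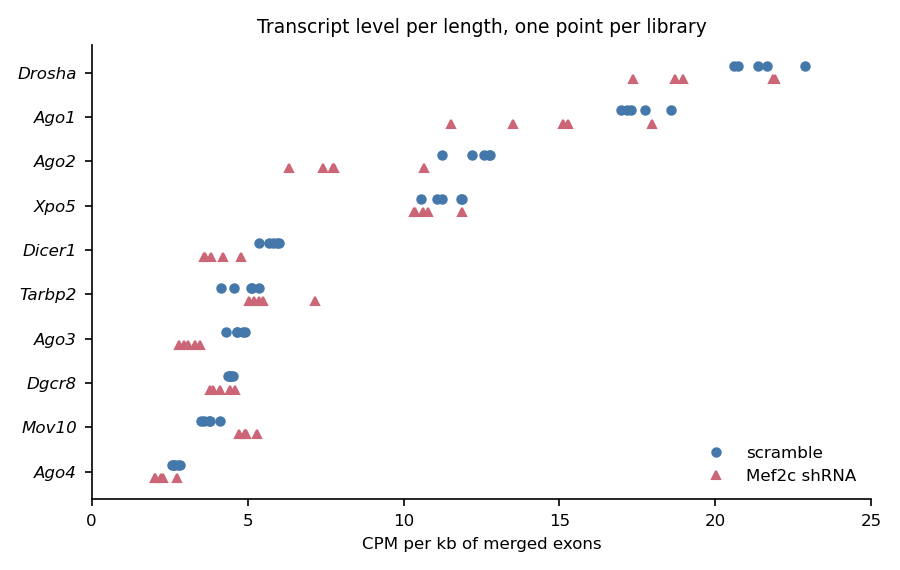
Level of each gene per library in CPM per kilobase of merged exons (linear axis from 0), ordered by the scramble mean; circles are scramble and triangles Mef2c shRNA libraries. Drosha leads with 21.45 and Ago4 is lowest with 2.69 in the scramble group, and the triangles of Ago2, Ago3 and Dicer1 lie left of their circles.

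Without correction for transcript length, the Argonaute pool differed between the groups in size and in make-up. The summed level of Ago1 to Ago4 was 35.2 to 38.7 CPM per kilobase in scramble libraries and 34.8, 26.1, 28.0, 28.4 and 22.9 in Mef2c shRNA libraries 1 to 5, with no overlap, although library 1 lay close to the lowest scramble library. Ago1 made up 47.15% ± 1.01 of that sum in the scramble and 52.28% ± 1.598 in the Mef2c shRNA libraries (SD, n = 5), and Ago2 33.03% ± 0.914 and 28.35% ± 1.35, each without overlap. In Mef2c shRNA library 1 the share of Ago2 was 30.6%, against at least 31.9% in the scramble libraries. Ago3 made up 12.58% ± 0.438 and 11.23% ± 0.960, and Ago4 7.24% ± 0.339 and 8.14% ± 0.912, and these ranges overlapped. With the offsets for length and GC content the log2 fold changes of Ago1 to Ago4 were -0.051, -0.20, -0.11 and -0.030, against -0.26, -0.62, -0.59 and -0.25 without. The shares follow from the values that chose the genes and are given as a description.

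Within the groups, pairs of genes were compared by Pearson r of log2 CPM after each group's mean was subtracted, over 10 libraries that share depth and composition. Ago1 and Ago2 were the most alike (r = 0.919), before Ago4 and Dicer1 (0.860) and Ago1 and Dicer1 (0.852). Among the 3 longest genes r was 0.829 for Ago2 and Dicer1, 0.81 for Ago2 and Ago3 and 0.789 for Ago3 and Dicer1. After the offsets for length and GC content these 3 values were -0.089, 0.097 and 0.208, and the median over all pairs went from 0.350 to -0.018. Ago1 with Ago2 (0.799) and the microprocessor pair Drosha with Dgcr8 (0.738 before and 0.728 after) kept theirs, and Tarbp2 ran opposite to Ago1 (-0.732 and -0.775). Among the 5 genes most like Ago3 by this measure were Amer2 (0.957), Arid4b (0.946), Usp37 (0.939) and Rif1 (0.937), with log2 fold changes of -0.23 to -0.61. Those most like Mov10 were Zfp81 (0.932), Bbs7 (0.930), Cdc27 (0.907), Ttpa (0.897) and Acp7 (0.895). Their log2 fold changes were -0.61 to -0.15, and none of them was called. For both genes these r were picked as the highest among 14393 genes over only 10 libraries, so nothing is read from them.

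The wider pathway was described with 9 lists of 119 genes, of which 117 were in the files and 113 were tested. Of these, 18 fell, 1 rose and 94 did not pass edgeR's adjusted p of 0.05, with a median log2 fold change of 0.01. Of the 24 tested genes with transcripts of at least 6 kb, 15 fell, and of the 89 shorter ones 3 fell and 1 rose. Over all genes tested, 7.61% fell and 4.66% rose. Among them, 35.1% of 2190 genes of at least 6 kb and 2.67% of 12191 shorter ones fell. With the offsets for length and GC content 1 gene of the lists passed, the kinase co-chaperone Cdc37 (0.45, SE 0.088, edgeR adjusted p = 0.0290), up from 0.19 without them. This rise rests on its offset, taken at the 7851 bases of its longest transcript. Which of its transcripts the reads came from was not tested.

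Of the 17 cofactors that act with Argonaute on its targets, 5 fell. They include all 3 GW182 scaffold proteins, which bind Argonaute and recruit deadenylases. Tnrc6b stood at 136.3 to 157.1 CPM in the scramble and 68.3 to 96.6 CPM in the Mef2c shRNA libraries, with no overlap. It passed with an edgeR adjusted p of 0.000664 at a log2 fold change of -0.71 (SE 0.089), and its transcript of 17332 bases was the longest among the genes of the lists that fell. Tnrc6a averaged 115.7 ± 7.51 CPM in the scramble and 89.0 ± 5.39 CPM in the Mef2c shRNA libraries (SD, n = 5), a log2 fold change of -0.38 with an edgeR adjusted p of 0.00312. For Tnrc6c the means were 205.2 ± 7.10 and 165.1 ± 27.2 CPM (-0.31, edgeR adjusted p = 0.0408). The RNA-binding ubiquitin ligase Rc3h1 (-0.43, edgeR adjusted p = 0.00527) and the helicase Ddx6 of processing bodies (-0.30, edgeR adjusted p = 0.0261) fell as well. The list median was -0.07. All 5 that fell had transcripts of at least 6 kb. After the offsets for length and GC content Tnrc6b stood at -0.20 (SE 0.073) and Ddx6 at -0.11. Tnrc6a stood at -0.077, Rc3h1 at -0.036 and Tnrc6c at 0.035. None of them passed then, and the list median was 0.035.

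The enzymes downstream of silencing showed a like split. Of 16 decapping and decay genes 2 fell, the decapping enzyme Dcp2, with means of 86.3 ± 6.16 and 62.8 ± 5.14 CPM (-0.46 on the log2 scale, edgeR adjusted p = 0.00189), and the exonuclease Xrn1 (-0.40, edgeR adjusted p = 0.0150). Lsm2, a small subunit of the ring that binds deadenylated ends, rose by 0.55 on the log2 scale (edgeR adjusted p = 0.0380), with means of 4.77 ± 0.957 and 6.99 ± 0.790 CPM. In both genes that fell the groups did not overlap, and in Lsm2 they did. Of 16 deadenylation genes 2 fell, the catalytic subunit Cnot6l (-0.31, edgeR adjusted p = 0.0219) and the scaffold Cnot1 (-0.23, edgeR adjusted p = 0.0442). The medians of these lists were -0.03 and 0.00. The longest transcripts of Dcp2, Xrn1, Cnot6l and Cnot1 had 8616, 10256, 8564 and 8390 bases. With the offsets for length and GC content their log2 fold changes were -0.15, -0.036, 0.039 and 0.082. Lsm2 then stood at 0.44, and none of these genes passed.

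Upstream, 2 of 10 microprocessor partners fell, the helicase Ddx17, with means of 571.4 ± 13.1 and 483.6 ± 37.2 CPM (-0.24, edgeR adjusted p = 0.0250), and the zinc finger protein Zc3h7b (-0.21, edgeR adjusted p = 0.0386). Of 6 nuclear export genes the nucleoporin Nup153 (-0.26, edgeR adjusted p = 0.0454) and the transfer RNA exporter Xpot (-0.22, edgeR adjusted p = 0.0440) fell. Among 9 hairpin editing and tailing genes the RNA editing genes Adarb1 (-0.27, edgeR adjusted p = 0.0309) and Adarb2 (-0.32, edgeR adjusted p = 0.0269) fell, each without overlap between the groups. The list medians were -0.02, -0.02 and -0.20. With the offsets for length and GC content Ddx17 stood at -0.17, Zc3h7b at -0.13 and Adarb1 at -0.11. Adarb2 then stood at -0.076, Nup153 at -0.058 and Xpot at -0.024, and none of these genes passed. Of the 13 genes of Dicer partners and Argonaute loading edgeR called 0, while 3 had an unadjusted p under 0.05, DESeq2 called 3 and limma-voom 2. Over all genes 4327 of 14393 had such a p, DESeq2 called 2534 and limma-voom 3393. The chaperones Hsp90ab1, at 1699 ± 74.7 and 1739 ± 79.2 CPM, and Hspa8, at 1161 ± 60.8 and 1201 ± 62.2 CPM, were its most abundant genes, and their differences lay within the spread between libraries.

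Mov10 has relatives among the helicases, listed with the PIWI pathway that works in the germ line. Of 14 such genes 10 were tested, and Mov10l1, Piwil1, Piwil4 and Tdrd9 were too low. Of the 10, 2 fell, among them the helicase Helz, with means of 84.4 ± 6.77 CPM in the scramble and 57.9 ± 9.73 CPM in the Mef2c shRNA libraries (SD, n = 5) and a log2 fold change of -0.54 (SE 0.100, edgeR adjusted p = 0.00527). The groups did not overlap in Helz. Its direction was opposite to that of Mov10, and its transcript had 13147 bases, against 3718 for Mov10. Among the helicases of the list that were not called, Helz2 (0.34, SE 0.28), Znfx1 (0.15, SE 0.092) and Upf1 (0.055) had positive log2 fold changes. Aqr had a negative one (-0.067). With the offsets for length and GC content Helz stood at -0.11 (SE 0.057) and did not pass. Of 16 sensors and binders of double-stranded RNA, 1 fell, the helicase Dhx9 (-0.36, edgeR adjusted p = 0.0490), and the list median was 0.46. In Dhx9 the groups overlapped. With the offsets for length and GC content Dhx9 stood at -0.28 (SE 0.095) and did not pass. The antiviral gene Oasl2 stood at 92.7, 90.8 and 98.6 CPM in Mef2c shRNA libraries 2, 3 and 4, at 29.4 and 6.70 CPM in libraries 1 and 5, and at 3.97 to 33.8 CPM in the scramble libraries, and it did not pass (edgeR adjusted p = 0.175).

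**Figure D5:**
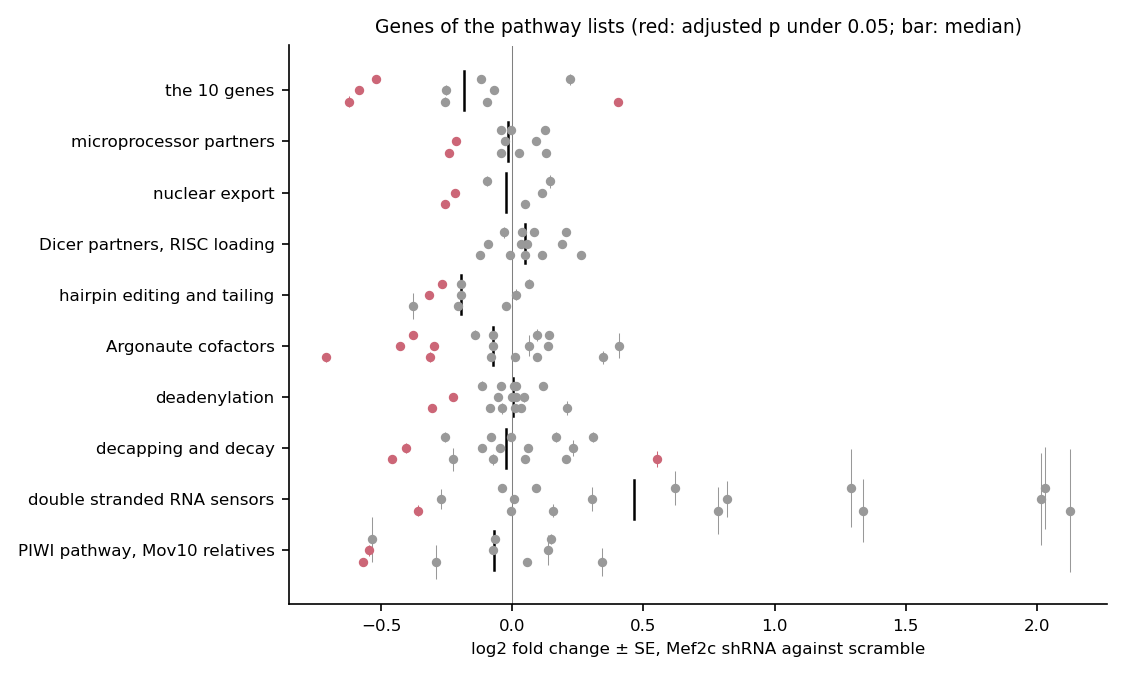
Log2 fold change of Mef2c shRNA against scramble (linear axis) for each tested gene of the pathway lists, 1 row per list, with the SE as a line, the list median as a black bar and genes past an adjusted p of 0.05 in red. Of 113 genes 18 lie in red on the left and 1 on the right, and the sensors of double-stranded RNA spread the widest with a median of 0.46.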

How the data were processed

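Polyadenylated RNA of mouse CA3 was sequenced in 5 scramble and 5 Mef2c shRNA libraries, after Trizol extraction, per the labels' protocols. Per the submitters' processing notes the authors used HISAT2 and featureCounts with the mm10 build; their versions, the strand setting and the annotation were not given in the sources used. As deposited, each file holds unnormalized whole-number counts, 1 per gene. Sample titles gave the group and number of each library, also for Mef2c shRNA 1, whose treatment tag is misspelt. Symbols, coordinates and lengths came from GENCODE M21 (GRCm38), which holds 18445 of the 18453 identifiers, and promoter windows from RefSeq (GRCm38.p6), with an entry for 9 of the 10 genes (none for Ago2).

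Counts were fitted with edgeR 4.0.16 in R 4.3.3 (filterByExpr, TMM, robust quasi-likelihood test of group alone), with Benjamini-Hochberg adjustment over 14393 genes and a threshold of 0.05. The SE is the size of the log2 fold change divided by the square root of F. CPM uses the TMM-scaled library size, and log2 CPM a prior count of 2. Length and GC offsets are natural splines (5 degrees of freedom each) of log2 length and GC content, fitted per library to centred log2 CPM. Coding sequences were aligned with MAFFT 7.526 in Python 3.11.15, and figures were drawn with matplotlib 3.10.9. The fit was tested on simulated counts.

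The genes and lists were chosen with earlier results of these data known. By rule the text names the 10 genes, Mef2c, up to 4 called genes of each pathway list with the smallest p (if none, the 2 most abundant), and the 5 genes most like Ago3 and Mov10. Tnrc6c, Cdc37, Oasl2, Helz2, Znfx1, Upf1 and Aqr were named after their values were seen. Not every gene taken by the rule is reported here. Alternatives were 2 normalizations, 2 filters, DESeq2 1.42.0, limma 3.58.1 with voom and sample weights, a replicate block, 1 surrogate variable (sva 3.50.0), length and GC offsets, covariates for interferon, microglia and cortical markers, and leaving out libraries. The offsets with coding transcripts and with RefSeq 3′ ends were added after seeing the data.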

Additional observations from a re-analysis of the deposited data

Results flagged for a closer look

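In 22 groups of 5 libraries (each of the 10 genes and Mef2c in each group), the highest or lowest library was compared with its neighbours by Dixon's ratio, and 3 passed the 95% critical value of 0.71, where chance gives about 1 in 20. Xpo5 stood at 81.37 CPM in Mef2c shRNA library 1, apart from 70.8 to 73.9 CPM in the other libraries of its group and within the scramble range of 72.4 to 81.5 CPM. Tarbp2 stood at 32.55 CPM in the library labelled Mef2c shRNA 5, against 22.99 to 25.03 CPM in the rest of that group. Mef2c stood at 312.02 CPM in scramble library 4, against 166.3 to 197.7 CPM in the other scramble libraries. Xpo5 and Tarbp2 were not called with or without those libraries.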

How the results depend on the processing

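The direction of Ago1, Ago2, Ago3, Ago4, Dicer1, Tarbp2 and Mov10 was the same under all 26 alternatives, with log2 fold changes of -0.75 to -0.18 for Ago2, -0.62 to -0.099 for Ago3, -0.59 to -0.16 for Dicer1 and 0.31 to 0.44 for Mov10. Ago2 and Dicer1 were called in 21 of them, and Ago3 and Mov10 in 22. The count of called genes among the 10 (4 with all libraries) was 4 to 6 with each library left out in turn. It was 0 with length and GC offsets, with the microglia covariate and without Mef2c shRNA libraries 2, 3 and 4. There 4, 6 and 5 of the 10 had an unadjusted p under 0.05, as had 2527, 2809 and 2590 of all genes. The count was 1 each with offsets from coding transcripts (Mov10) and from RefSeq 3′ ends (Ago3). Ago1 was also called by limma-voom, with the cortical covariate and without Mef2c shRNA library 1, and Ago4 by limma-voom and without that library. Small values changed sign: Xpo5 to 0.021, 0.060 and 0.0080 with offsets from longest transcripts, coding transcripts and RefSeq 3′ ends, Drosha to 0.037 and Dgcr8 to 0.0095 with the microglia covariate, Drosha to 0.022 and Dgcr8 to 0.017 without Mef2c shRNA libraries 2, 3 and 4, and Dgcr8 to 0.0022 with coding transcripts. The cause was not tested.

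Of all genes, 1766 were called by edgeR, and of the pathway lists 19. These counts were 3393 and 31 by limma-voom, 608 and 8 with 1 surrogate variable, 238 and 1 with length and GC offsets, 357 and 3 with coding transcripts, 295 and 3 with RefSeq 3′ ends, 1093 and 12 with the interferon covariate and 1029 and 10 without scramble library 4 and Mef2c shRNA library 5. With the microglia covariate and without Mef2c shRNA libraries 2, 3 and 4 both were 0, where 21 and 23 genes of the lists had an unadjusted p under 0.05. The cortical covariate gave 2799 genes. Leaving out each library in turn gave 631 (without scramble library 2) to 3305 genes (without Mef2c shRNA library 1) and 6 to 26 genes of the lists. It was 990, 758 and 674 genes without scramble libraries 1, 4 and 5 and 737, 1137 and 1061 without Mef2c shRNA libraries 2, 3 and 4. The fold between the highest and lowest level became 9.73 per kilobase of the longest transcript, and the median r between genes became -0.018 after the offsets.

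Replicate numbers are shared by the groups, but same-numbered libraries correlated at 0.239, 0.185, 0.403, -0.114 and 0.079 and only 2 of 10 correlated best with their own number, so they were not treated as pairs. With a replicate block 1313 genes were called, 4 of the 10 genes and 13 of the lists. Counting error was at least as large as the spread between libraries for Ago4 and Dgcr8 in the scramble group and Mov10 in the Mef2c shRNA group, so depth limits these values.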
